A study of Mus musculus with 6 samples.

Results

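The D cyclins, the CIP/KIP inhibitors of cyclin-dependent kinases, the retinoblastoma protein, p53 and its inhibitor Mdm2 control whether a cell enters a new cycle. Their 9 genes (Ccnd1, Ccnd2, Ccnd3, Cdkn1a, Cdkn1b, Cdkn1c, Rb1, Trp53 and Mdm2) were taken by name from a table of 19060 genes counted in the proximal mouse incisor, the end of the tooth that grows throughout life. All 9 passed the filter on low counts, as did 15826 genes in all. The 3 control mice carried Fgfr1fl/fl (both copies of the FGF receptor gene Fgfr1 flanked by loxP sites), which the sample labels call wild type. The 3 mutant mice carried Gli1CreER;Fgfr1fl/fl, for which the labels write Gli1-Cre. Per the methods, tamoxifen was given at 1 month of age to control and mutant mice alike, and the tissue was collected 1 week later. All mice were of a mixed background. In this model Cre is made only where the Gli1 promoter is active, while the RNA came from the whole proximal end, which also holds epithelium, vessels and blood. A lower level in such bulk RNA can come from fewer cells of a type or from less RNA per cell, which cannot be told apart here.

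D cyclins are made in response to growth factors such as FGFs and activate the kinases Cdk4 and Cdk6, which phosphorylate the retinoblastoma protein and so release the E2F factors that switch on S-phase genes. The CIP/KIP inhibitors p21 (Cdkn1a), p27 (Cdkn1b) and p57 (Cdkn1c) bind the complexes of cyclins and kinases. p53 switches on Cdkn1a and Mdm2, and Mdm2 in turn marks p53 for breakdown. In the proximal incisor, slowly cycling stem cells feed fast cycling transit amplifying cells, which leave the cycle when they become odontoblasts or ameloblasts.

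The mutant libraries were shallower than the control libraries, with total counts between 5276557 and 11819576 against 31060222 to 32712448, and mutant 1 held the fewest. The 9 genes were well covered, with at least 154 counts in every library. Normalized values are CPM (counts scaled to a common library size, here by the upper quartile) and are given in the order of samples 1, 2 and 3. Fgfr1, the targeted gene, had 529, 924 and 434 CPM in the controls and 148, 318 and 262 CPM in the mutants, each mutant sample below each control. Groups were compared by a two-sided quasi-likelihood test in edgeR, with p-values adjusted by Benjamini-Hochberg over all genes tested. A gene is said to have risen or fallen where the unadjusted p was under 0.05 and the change over 1.5-fold, which is the threshold of the study. The labels give each sample a group, a number and a code of unstated meaning, and do not say whether samples share a litter or a library run, so the p-values measure only the spread between these samples, which may be technical.

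Only Cdkn1a passed that threshold, and it fell. The other 8 genes did not pass it, against a background of 19.8% of all genes tested. Cdkn1a had 271, 246 and 376 CPM in the controls and 96.9, 125 and 167 CPM in the mutants. The highest mutant sample lay well below the lowest control sample. The means were 298 ± 69.2 and 130 ± 35.1 CPM (SD, n = 3), and Cdkn1a was 2.29-fold lower in the mutants. Its log2 fold change was -1.20 (standard error 0.29, 95% interval -1.87 to -0.52), with an unadjusted edgeR p of 0.00344 (adjusted p 0.0502). Across 16 other scalings, filters, tools and subsets of samples, Cdkn1a stayed past the study's threshold each time, and its adjusted p ran from 0.00157 with DESeq2 to 0.245 without control replicate 3. It was under 0.05 in 5 of the 16. With all 6 samples in edgeR, 0 of the 9 genes had an adjusted p under 0.05 and 1 an unadjusted p under it, while 6.79% of all genes had such an adjusted p. DESeq2 and limma-voom each gave 1 of the 9, Cdkn1a, an adjusted p under 0.05.

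**Figure D1:**
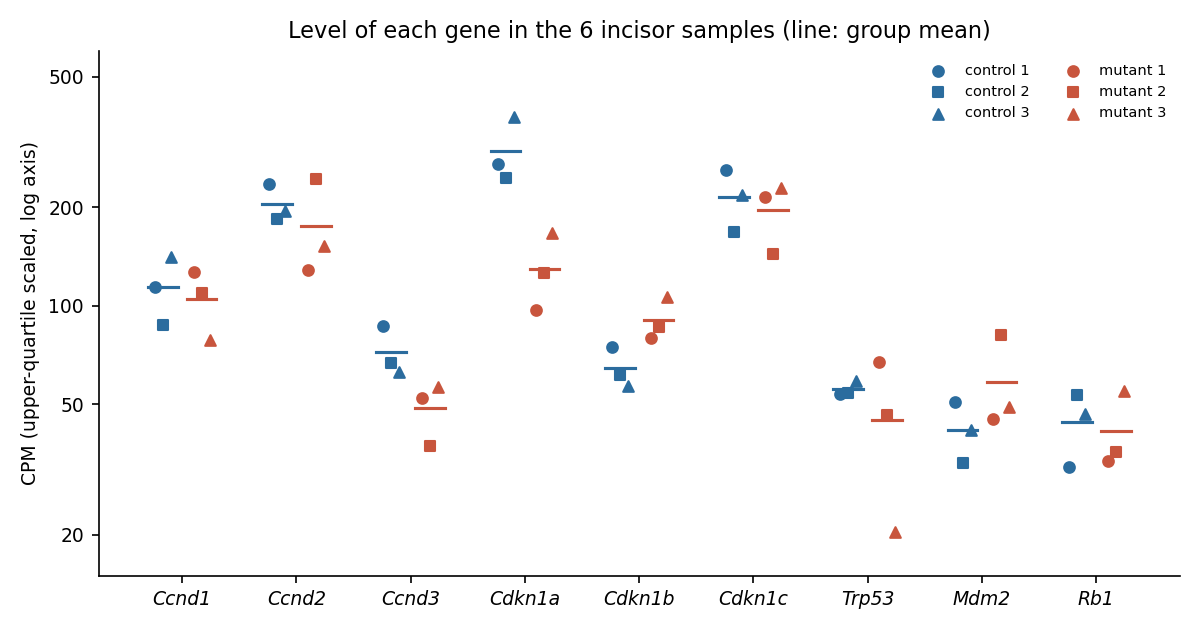
Level of the 9 genes in CPM (vertical log axis) in each of the 3 control (blue) and 3 mutant (red) incisor samples, with a line at each group mean. Cdkn1a lay between 246 and 376 CPM in the controls and between 96.9 and 167 CPM in the mutants, while Ccnd1, Ccnd2, Cdkn1c, Trp53, Mdm2 and Rb1 overlapped between the groups.

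Markers of other cells also moved with the genotype. The summed level of 12 dental epithelium and ameloblast markers was 86060 to 122011 CPM in the controls and 32220 to 70546 CPM in the mutants, without overlap, as for Cdkn1a. The enamel genes Amelx and Ambn, named after their values were seen, held most of this sum in every sample. Their means were 59345 and 36398 CPM in the controls and 25371 and 16600 CPM in the mutants. Of the 12 markers, 10 had lower estimates, where 7622 of all 15826 genes tested had a higher one. From this list edgeR called 0 (0 also at an unadjusted p under 0.05), DESeq2 5 and limma-voom 2, each of these lower. The summed level of 7 erythroid markers was 380 to 834 CPM in the controls and 926 to 2560 CPM in the mutants, without overlap. The erythroid list did not move in 1 direction, since edgeR, DESeq2 and limma-voom each called 2 of it higher and 1 lower. The 1 with an adjusted p under 0.05 in edgeR was lower. Of all genes tested, 10.9% rose and 8.92% fell in edgeR. The sums of 7 odontoblast, 10 dental mesenchyme, 9 macrophage and osteoclast, 7 endothelial and 7 Schwann cell markers overlapped between the groups, and the defining markers of all 5 were detected. Within these 5 lists, edgeR and DESeq2 each called 1 macrophage and osteoclast marker higher. DESeq2 also called 2 endothelial markers lower, and limma-voom called 0 in the 5 lists. The sum over 9 skeletal muscle markers was 9.76 to 2971 CPM in the controls and 170 to 6755 CPM in the mutants. The part of the epithelial and erythroid shifts in the lower Cdkn1a level was not tested.

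Cdkn1a lies on chromosome 17 of GRCm38, from 29090976 to 29100727 on the plus strand. RefSeq on GRCm38.p6 gives it more than 1 start site, and the downstream one is 2790 bases from the upstream one. Windows of 250 bases before to 50 bases after each start are shown because Cdkn1a is the gene that fell and is a classical p53 target, with that of Cdkn1b, its family member with a higher estimate, for comparison. Capitals mark a pair of p53 core motifs (CATG, any 6 bases, CATG), GC boxes (GGGCGG) and CCAAT boxes (CCAAT), on either strand. All 3 windows are on the plus strand and run 5′ to 3′, from chr17:29090729-29091028, chr17:29093519-29093818 and chr6:134920151-134920450.
Cdkn1a, upstream start: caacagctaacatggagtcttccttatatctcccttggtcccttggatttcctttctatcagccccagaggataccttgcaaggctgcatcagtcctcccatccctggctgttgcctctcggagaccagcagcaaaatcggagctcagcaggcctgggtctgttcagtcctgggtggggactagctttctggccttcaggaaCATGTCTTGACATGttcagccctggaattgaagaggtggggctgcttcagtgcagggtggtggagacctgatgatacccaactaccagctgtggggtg
Cdkn1a, downstream start: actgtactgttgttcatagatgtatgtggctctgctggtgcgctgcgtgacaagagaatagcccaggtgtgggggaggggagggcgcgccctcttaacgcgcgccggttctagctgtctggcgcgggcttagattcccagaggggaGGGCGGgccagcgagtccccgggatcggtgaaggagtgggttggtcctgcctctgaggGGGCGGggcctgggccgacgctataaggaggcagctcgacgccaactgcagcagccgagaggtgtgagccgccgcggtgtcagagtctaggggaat
Cdkn1b: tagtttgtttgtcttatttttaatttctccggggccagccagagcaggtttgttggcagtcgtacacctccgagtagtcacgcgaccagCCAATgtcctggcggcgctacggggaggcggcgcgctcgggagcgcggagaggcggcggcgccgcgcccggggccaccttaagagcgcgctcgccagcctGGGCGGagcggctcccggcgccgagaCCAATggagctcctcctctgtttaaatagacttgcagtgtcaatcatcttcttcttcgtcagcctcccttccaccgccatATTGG
With the start as position 1, the p53 pair begins at -48 in the upstream Cdkn1a window, and 0.712% of the 32851 mouse promoter windows of this length hold one. The downstream Cdkn1a window holds GC boxes at -104 and -46, a motif found in 35.7% of all windows. The Cdkn1b window holds a GC box at -61 and CCAAT boxes at -161, -35 and 46, and 37.4% of all windows hold a CCAAT box. RefSeq windows were matched for 5 of the 9 genes, the others being Ccnd3, Mdm2 and Trp53, and the p53 pair was found in none of those. Sites outside the windows, such as in introns, were not searched, so the genes may hold a pair elsewhere. The E2F forms TTTGGCGC and TTTCCCGC and the full cyclic AMP element TGACGTCA were in no window of these 5 genes, and are in 0.514, 1.07 and 1.79% of all windows. Its half-site TGACG, which also lies within the full element, was in windows of Ccnd3, Cdkn1b and Mdm2 and is in 20.8% of all windows. The letters of a TATA box (TATAAA) were in the Trp53 window, at -248 and on the opposite strand, and are in 13.6% of all. A match gives only the letters of the reference. The counts are per gene, so transcripts from the upstream and downstream Cdkn1a starts cannot be told apart.

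The other CIP/KIP inhibitors did not pass the threshold. Cdkn1b, which encodes p27 and lies on chromosome 6 from 134920401 to 134925513, had 74.8, 61.3 and 57.0 CPM in the controls and 79.7, 85.8 and 107 CPM in the mutants. All 3 mutant samples lay above all 3 controls, with a log2 fold change of 0.50 (standard error 0.23, 95% interval -0.031 to 1.02) and an adjusted p of 0.277 by edgeR. Cdkn1c, the imprinted gene of p57 on chromosome 7 from 143458339 to 143461050, had 259, 168 and 218 CPM in the controls and 215, 144 and 229 CPM in the mutants. These values overlapped, and the log2 fold change was -0.14 with an adjusted p of 0.854 by edgeR. Groups that did not overlap were seen for 3 of the 9 genes, of which Cdkn1a and Ccnd3 were lower and Cdkn1b higher in the mutants, and 30.4% of all genes tested showed such a separation (14.1% higher and 16.3% lower in the mutants).

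Levels per length (RPKM, the CPM divided by the length of the longest transcript in kilobases) put Cdkn1a and Cdkn1c at the top in both genotypes. In the controls Cdkn1a had 143 ± 33.3 and Cdkn1c 113 ± 24.1 RPKM (SD, n = 3), and their samples overlapped. In the mutants Cdkn1c came first, with 103 ± 23.9 RPKM, followed by Cdkn1a with 62.3 ± 16.9 RPKM, again with overlap. Cdkn1b was far lower in both genotypes, at 14.1 ± 2.04 RPKM in the controls and 19.9 ± 3.10 RPKM in the mutants. As a share of the summed CIP/KIP level per length, Cdkn1a made up 46.0, 53.7 and 58.7% in the controls against 26.3, 38.9 and 35.8% in the mutants. The Cdkn1b share was 5.80, 6.13 and 4.06% in the controls and 9.88, 12.2 and 10.5% in the mutants. The Cdkn1c share was 48.2, 40.2 and 37.3% against 63.8, 48.9 and 53.7%. None of these 3 shares overlapped between the genotypes, and since they sum to the whole they are not independent of each other.

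**Figure D2:**
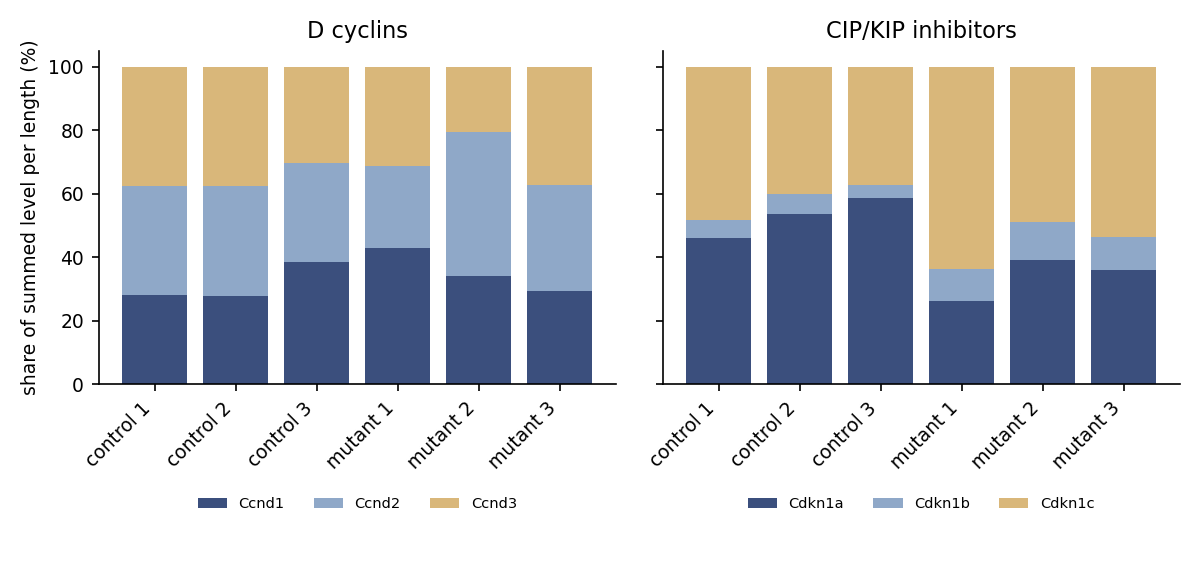
Share (%) of each D cyclin (left) and each CIP/KIP inhibitor (right) in the summed level per length of its family, as 1 stacked bar for each of the 6 incisor samples. The Cdkn1a share was 46.0 to 58.7% in the controls and 26.3 to 38.9% in the mutants, while the share of each D cyclin overlapped between the genotypes.

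A ratio of counts within a sample does not depend on how the libraries are scaled, so 8 such ratios were compared with an exact permutation test (two-sided), for which 3 samples against 3 cannot go below p = 0.1. The log2 ratio of Cdkn1a to Cdkn1b was 1.86, 2.00 and 2.72 in the controls and 0.28, 0.55 and 0.64 in the mutants. The difference of -1.70 had an exact p of 0.1, the smallest the design allows, and an adjusted p of 0.267 over the 8 ratios. Cdkn1a to Cdkn1c was 0.063, 0.55 and 0.78 in the controls and -1.15, -0.20 and -0.46 in the mutants, so Cdkn1a had more counts than Cdkn1c in every control and fewer in every mutant sample. The difference was -1.07, with the same exact p of 0.1 and adjusted p of 0.267. Cdkn1b to Cdkn1c was higher in the mutants by 0.64, also without overlap and with the exact p of 0.1. The other 5 ratios overlapped between the groups. Such ratios can still depend on transcript length and GC content, as can the shares above. When these were corrected for, the edgeR log2 fold change was -1.07 for Cdkn1a, 0.33 for Cdkn1b and 0.14 for Cdkn1c.

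**Figure D3:**
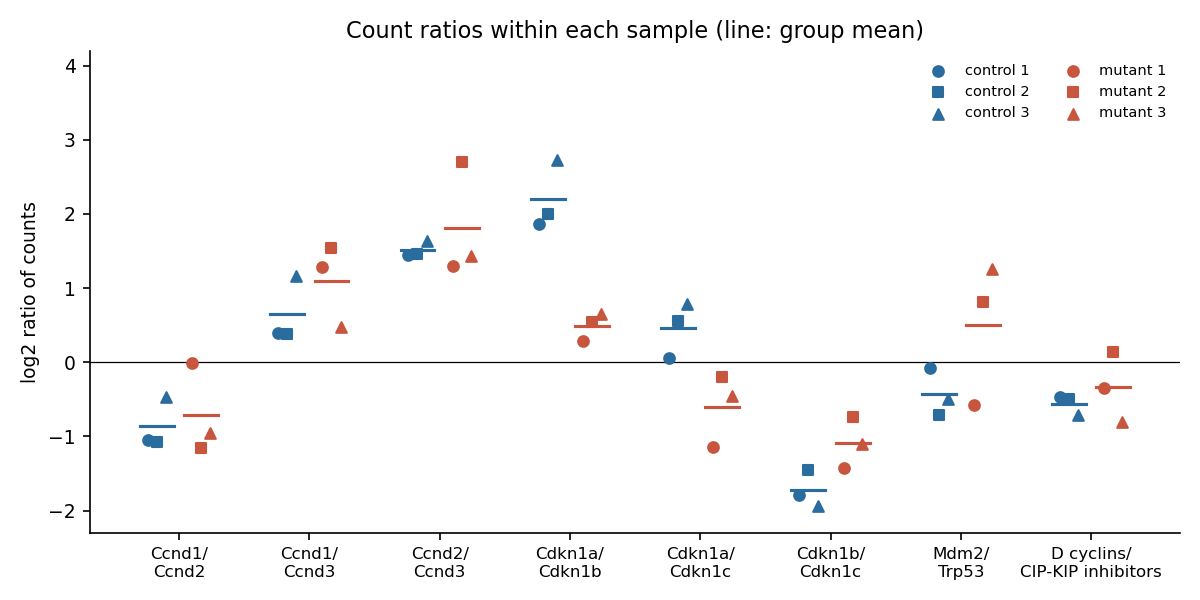
Log2 ratio of counts for 8 pairs or sums of genes (horizontal axis) in each control (blue) and mutant (red) sample, with a line at each group mean. The 3 ratios within the CIP/KIP family separate the groups, at 1.86 to 2.72 against 0.28 to 0.64 for Cdkn1a to Cdkn1b, and the other 5 overlap.

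With all samples in edgeR, 0 of the 3 D cyclins passed the threshold, and 0 had an unadjusted p under 0.05. Ccnd1, on chromosome 7 from 144929931 to 144939925, had 114, 87.1 and 141 CPM in the controls and 127, 109 and 78.8 CPM in the mutants. The groups overlapped, and the log2 fold change of -0.12 (95% interval -0.76 to 0.52) leaves room for a change of either sign, with an adjusted p of 0.871 by edgeR. Its sign turned when transcript length and GC content were corrected for, to 0.26. Ccnd2, on chromosome 6 from 127125162 to 127152193, had 235, 184 and 195 CPM in the controls and 129, 244 and 152 CPM in the mutants. Mutant 2 was the highest of all 6 samples and the other two mutants were the lowest, with a log2 fold change of -0.23 (95% interval -0.90 to 0.45) and an adjusted p of 0.752 by edgeR.

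Ccnd3, on chromosome 17 from 47505051 to 47599691, had 86.7, 66.7 and 62.9 CPM in the controls and 52.2, 37.4 and 56.5 CPM in the mutants. Each mutant sample lay below each control sample, and the means were 72.1 ± 12.8 and 48.7 ± 10.03 CPM (SD, n = 3). The log2 fold change was -0.57 (standard error 0.26, 95% interval -1.16 to 0.025), with an unadjusted edgeR p of 0.0582 (adjusted p 0.268). Ccnd3 passed the study's threshold with TMM scaling (-0.66), total counts alone (-0.84) and DESeq2 (-0.60). Total counts moved the median of all genes from -0.040 to -0.30, and relative to that median Ccnd3 was at -0.54 with total counts and -0.53 with the upper quartile. With the length and GC correction its log2 fold change was -0.24.

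Per length, the D cyclins stood close together. In the controls Ccnd3 had 34.1 ± 6.04, Ccnd2 32.4 ± 4.24 and Ccnd1 30.5 ± 7.20 RPKM, and neighbours in this order overlapped. In the mutants the order was Ccnd1 with 28.1 ± 6.52, Ccnd2 with 27.6 ± 9.65 and Ccnd3 with 23.0 ± 4.75 RPKM, again with overlap (SD, n = 3 throughout). The log2 ratio of Ccnd1 to Ccnd3 was 0.40, 0.38 and 1.16 in the controls and 1.28, 1.54 and 0.48 in the mutants, a difference of 0.45 (exact permutation test, p = 0.2). The summed D cyclin counts over the summed CIP/KIP counts gave log2 ratios of -0.47, -0.49 and -0.71 in the controls and -0.35, 0.14 and -0.80 in the mutants. The mutants spanned the control range on both sides, with a difference of 0.22 (exact permutation test, p = 0.5).

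**Figure D4:**
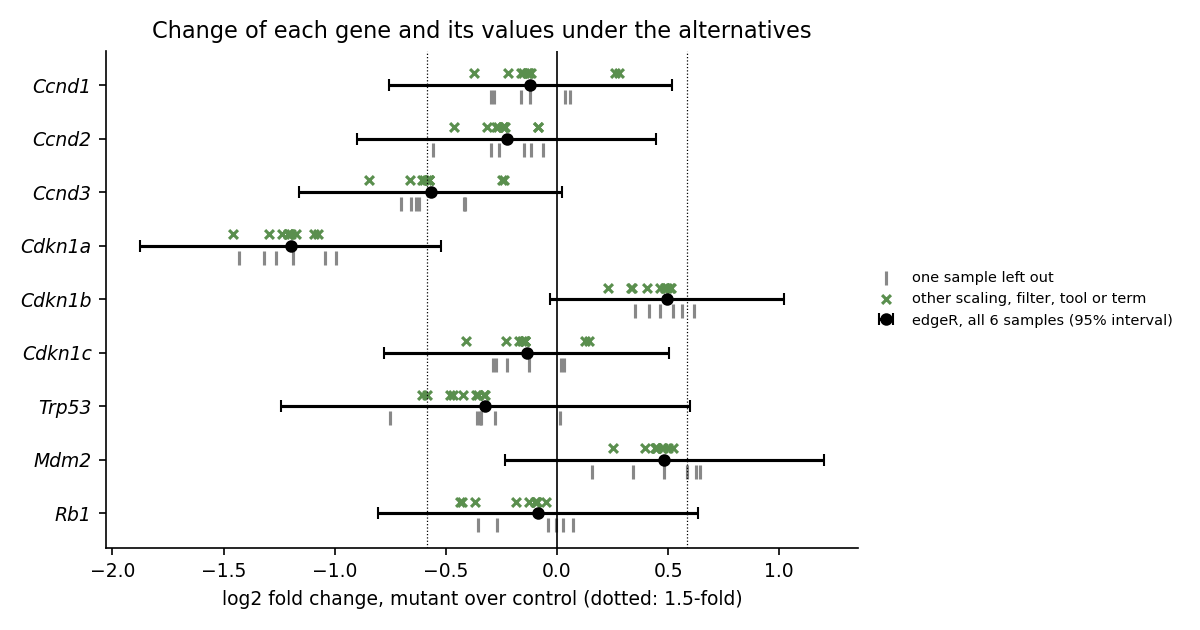
Log2 fold change of each gene, mutant over control, with its 95% interval (black, edgeR on all 6 samples), beside the values under other scalings, filters, tools or terms (green crosses) and with each sample left out (grey ticks). The dotted lines mark 1.5-fold, and Cdkn1a, from -1.46 to -0.99, is the gene whose estimates all lie past them.

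Trp53 and Mdm2 did not separate the groups. Trp53, the gene of p53 on chromosome 11 from 69580359 to 69591873, had 53.9, 54.3 and 59.0 CPM in the controls and 67.4, 46.4 and 20.5 CPM in the mutants. The controls were tight and the mutants wide, with mutant 1 the highest and mutant 3 the lowest of all 6. Its log2 fold change was -0.32 (95% interval -1.24 to 0.60), with an adjusted p of 0.741 by edgeR, and 0.015 without mutant replicate 3. Mdm2, on chromosome 10 from 117688875 to 117710758, had 50.8, 33.1 and 41.7 CPM in the controls and 44.96, 81.4 and 49.1 CPM in the mutants. Mutant 2 was the highest, the groups overlapped, and the log2 fold change of 0.48 (95% interval -0.23 to 1.20) had an adjusted p of 0.461 by edgeR. It was 0.16 without mutant replicate 2. The log2 ratio of Mdm2 to Trp53 was -0.084, -0.71 and -0.50 in the controls and -0.58, 0.81 and 1.26 in the mutants, a difference of 0.93 with overlap (exact permutation test, p = 0.3).

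Rb1, which encodes the retinoblastoma protein and lies on chromosome 14 from 73183673 to 73325822, had 32.1, 53.3 and 46.7 CPM in the controls and 33.6, 35.9 and 54.8 CPM in the mutants. The values overlapped, with a log2 fold change of -0.086 (95% interval -0.81 to 0.63) and an adjusted p of 0.924 by edgeR. Per length Rb1 was the lowest of the 9 genes in both genotypes, at 9.46 ± 2.32 RPKM in the controls and 8.90 ± 2.50 RPKM in the mutants (SD, n = 3). The Rb1 and Mdm2 samples overlapped in the controls and did not in the mutants, where Mdm2 had 18.6 ± 6.34 RPKM.

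Over the 9 genes the median log2 fold change was -0.14, beside -0.040 over all genes tested. Of all 15826 genes tested, 7622 had a higher estimate. Of the 9, 7 had a lower and 2 a higher estimate, Cdkn1b and Mdm2. The genes around them in the pathway were taken in 7 lists, of which 112 of 113 genes could be tested. Of these 112, 5 rose and 10 fell, against 10.9 and 8.92% of all genes tested, and their median log2 fold change was 0.040. In edgeR, 6 of the 112 had an adjusted p under 0.05, beside 6.79% of all genes tested. They were Ccne2, Fbxw8, Cdkn2a, Pidd1, Plk3 and Orc1, of which the last 4 had 0 counts in every mutant library. Each list gene with an unadjusted p under 0.05 in edgeR also changed by over 1.5-fold, so the counts below are the same by p alone.

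Among the cyclin-dependent kinases and their G1/S partners, 3 of 10 rose and 0 fell in edgeR, DESeq2 and limma-voom alike. Ccne2, the gene of cyclin E2 that drives Cdk2, had 5.04, 3.08 and 7.51 CPM in the controls and 29.0, 25.4 and 22.9 CPM in the mutants. All mutant samples stood well above the controls, and its log2 fold change of 2.30 (standard error 0.49) had an adjusted p of 0.0464 by edgeR. After the length and GC correction it was 1.32 (adjusted p 0.188 by edgeR), and its adjusted p was under 0.05 in 6 of the 16 alternatives. Cdk7, the kinase that activates other cyclin-dependent kinases, rose by 1.18 on the log2 scale (adjusted p = 0.0770 in edgeR), and its cyclin partner Ccnh by 0.97. Cdk4, the main partner of the D cyclins, named with Ccnh after its values were seen, had 298 ± 97.1 CPM in the controls and 258 ± 36.7 CPM in the mutants (SD, n = 3), and did not pass. Cdk6, chosen likewise, had a log2 fold change of 0.64 and did not pass either. The median of this list was 0.30, and -0.019 after the length and GC correction, which left 1 of its genes risen.

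The INK4 inhibitors block Cdk4 and Cdk6. Of the 4, Cdkn2a, which encodes p16 and p19ARF, fell. It had 24, 29 and 24 counts in the controls and 0 in each mutant library, and was at least 6.38-fold lower when the mutants were set to 3 counts over the whole group (0.114 CPM), a bound that covers counting error only. Of all genes tested, 378 (2.39%) were at 0 in every mutant library, as were 4 of the 112 pathway genes. Cdkn2a passed in 9 of the 12 alternatives in which it was tested, DESeq2 not among them. The other 3 had log2 fold changes between 0.053 and 0.57 and did not pass. Among the relatives of the retinoblastoma protein, the E2F factors and the DREAM complex, 1 of 17 rose and 1 fell in edgeR, 1 rose and 2 fell in DESeq2, and 1 rose and 4 fell in limma-voom. Without mutant replicate 1 or mutant replicate 2, 3 fell. E2f6, a repressing E2F, rose by 0.90 on the log2 scale and passed in 10 of the 16 alternatives, and Tfdp1, the dimer partner of E2Fs, fell by 0.97 on the log2 scale. The median of this list was -0.50, and -0.26 after the length and GC correction.

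For the p53 regulators and targets, the counts are to be read beside the 10.9% of all genes that rose and the 8.92% that fell. Of 15 regulators, Cop1, which marks p53 for breakdown, fell by 0.70 on the log2 scale in edgeR and 0 rose. DESeq2 also gave 1 fallen and 0 risen, and limma-voom 0 of both. Of 31 p53 targets tested besides Cdkn1a and Mdm2, 0 rose and 2 fell in edgeR, 1 rose and 2 fell in DESeq2, and 2 rose and 4 fell in limma-voom. Without mutant replicate 1, 3 rose and 5 fell. With the replicate number as a block, 2 rose and 0 fell. When length and GC content were corrected for as well, 0 rose and 0 fell. Filtering at 50 counts on average also left 0 risen and 0 fallen. DESeq2 gave 0 of these targets an adjusted p under 0.05, where edgeR and limma-voom each gave 2. The 2 in edgeR were Pidd1, which forms a platform that activates caspase-2, and Plk3, a stress-response kinase. Pidd1 had 42, 55 and 53 counts in the controls and 0 in every mutant, and was at least 12.4-fold lower over the group floor of 3 counts. Plk3 had 44, 44 and 53 counts in the controls and 0 in every mutant, and was at least 11.7-fold lower by the same floor. Pidd1 and Plk3 each passed in 13 of the 15 alternatives in which they were tested, and did not pass with the replicate block. Of the 31, 22 had a higher estimate, as did 7622 of all 15826 genes tested. The median of the 31 was 0.13, and turned to -0.13 with total counts alone and -0.11 with limma-voom. The cyclin G1 gene Ccng1, a well known p53 target named after its values were seen, had 91.4, 88.0 and 104 CPM in the controls and 145, 107 and 129 CPM in the mutants, without overlap. Its log2 fold change of 0.43 had an adjusted p of 0.334 in edgeR and did not pass.

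**Figure D5:**
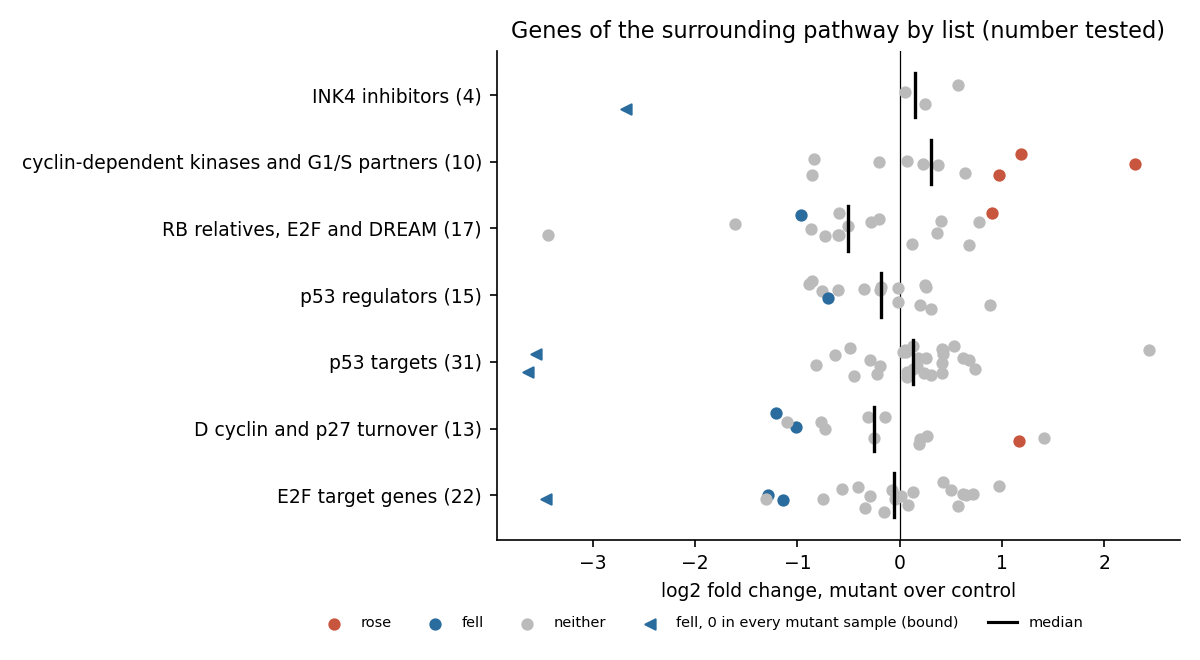
Log2 fold change, mutant over control, of each tested gene (points) in 7 lists around the 9 genes, with the number tested in brackets and a line at each list's median. Red genes rose, blue fell and grey passed neither way, and triangles are bounds for Cdkn2a, Pidd1, Plk3 and Orc1, which had 0 counts in every mutant library. In all, 5 genes rose and 10 fell.

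Genes that control the turnover of D cyclins and p27 held 1 that rose and 2 that fell among 13. Skp1, listed in the table under the older symbol Skp1a and a core subunit of SCF ubiquitin ligases, had 283, 143 and 229 CPM in the controls and 443, 453 and 573 CPM in the mutants. Fbxw8, a substrate adaptor of such ligases, had 97.3, 101 and 99.5 CPM in the controls and 38.8, 41.9 and 47.9 CPM in the mutants. Both genes separated the groups, and Fbxw8, with a log2 fold change of -1.21 (standard error 0.21), had an adjusted p of 0.0309 by edgeR. With the length and GC correction and the replicate number as a block, the log2 fold change of Fbxw8 was -0.46 and that of Skp1a was 0.56, and neither passed. Gsk3b, a kinase that phosphorylates D cyclins, fell by 1.01 on the log2 scale. Of 22 E2F target genes, 0 rose in any of edgeR, DESeq2 and limma-voom, and 3 fell in edgeR, namely Orc1, Mcm7 and, named after its values were seen, Mcm3. Other genes of the list that also act in origin licensing did not pass, such as Mcm6 at 0.50, Cdc6 at 0.57 and Cdt1 at -0.29, chosen after their values were seen. The number that fell was 0 without control replicate 3, 1 without control replicate 1 and 6 without mutant replicate 1, and 2 rose without mutant replicate 2. With the length and GC correction, and likewise with the replicate number as a block, 1 rose. Mcm7 had 38.5, 32.9 and 43.4 CPM in the controls and 8.29, 20.7 and 17.8 CPM in the mutants, and Orc1 was at 0 counts in every mutant and at least 10.97-fold lower. The median of the E2F targets was -0.060, and 0.041 after the length and GC correction. It was -0.52 when mutant replicate 1 was left out and 0.21 when control replicate 3 was.

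For each of the 9 genes, the genes with the most alike pattern were found among 9707 with a mean of at least 10 CPM, as the smallest mean absolute difference of centred log2(CPM + 1) over the 6 samples. For Cdkn1a these were Rab27a (0.087), Tspan14 (0.087) and Gga2 (0.091), where the median over all genes was 0.67. For the D cyclins the closest were H2ax (0.035) to Ccnd1, Ikbkg (0.046) to Ccnd2 and Mfap2 (0.063) to Ccnd3. For Cdkn1b it was Asah1 (0.029), for Cdkn1c Fance (0.045), for Trp53 Cdo1 (0.074), for Mdm2 Gm5835 (0.066) and for Rb1 Dnajc3 (0.068). With 6 samples these are descriptions only.

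Several of the counts can hold reads of neighbours or copies, since the strand setting of the counting is not given in the sources used here. Ccnd1 shares 1100 exon bases with LTO1 on the opposite strand, Ccnd3 shares 361 with Bysl, Cdkn1c 625 with Gm44732 and Rb1 488 with Rcbtb2 and 408 with Lpar6. Ccnd2 shares 372 exon bases with the antisense gene Gm43126, which had 80 and 103 counts in mutants 2 and 3 and at most 2 in the other 4 samples. The Trp53 transcripts hold stretches of at least 75 bases, the read length, at 97% identity or more with 78 other genes, among them the pseudogene Trp53-ps, so the Trp53 level is uncertain. Those of Cdkn1a do so with 14 genes, over 78 to 138 bases, those of Ccnd3 with 6, over up to 295 bases of its pseudogene Ccnd3-ps, and those of Mdm2 with 4. Cdkn1a also shares 273 exon bases with AC167363.2 on the opposite strand.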

How the data were processed

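RNA from the proximal incisor of 3 control and 3 mutant mice was sequenced by the authors as single reads of 75 bases, and the samples were grouped by their labels. Per the paper's methods, the authors used Partek Flow for trimming and for alignment to mm10 (GRCm38), and TopHat2 2.0.8 is named in the submitters' processing notes. The annotation, strand setting and counting model are not given in the sources used here. The deposited values are estimated counts per gene without normalization, with 19060 genes, each reaching a count of at least 10 in some sample. A second deposited table holds the authors' own comparison (p-values, ratios, fold changes and means) and was not used.

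Counts were rounded to whole numbers and analysed with edgeR 4.0.16 in R 4.3.3, with upper-quartile scaling, filterByExpr (min.count 10, min.total.count 15), a model of genotype alone and the quasi-likelihood test. Standard errors were derived from the F statistics. The alternatives were TMM scaling, total counts, DESeq2 1.42.0, limma-voom 3.58.1, no filter, a mean of at least 50 counts, the replicate number as a block, offsets for length and GC content of the transcript (splines with 4 degrees of freedom), control counts thinned to 9484797, and each of the 6 samples left out. Within-sample ratios used a pseudocount of 0.5 counts, with 5 as the alternative. Positions and lengths came from GENCODE M21 (18637 symbols matched directly, 216 by a synonym and 207 not), and promoter windows from RefSeq. The tests were checked on simulated counts. Where a gene had 0 counts the limit was set at 3 counts, or 0.0825 to 0.0874 CPM in the controls and 0.256 to 0.655 CPM in the mutants, for counting error only. Bounds on folds used 3 counts over the 3 mutant libraries together, which is 0.114 CPM.

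The 9 genes, the gene lists and the 8 cell type lists were chosen with earlier results of these data known. The genes named are the 9, Fgfr1, at most 2 risen and 2 fallen genes per list, ordered by p, the 3 genes with the most alike pattern for each (the closest 1 is printed for most), and overlapping or copied genes. Others are marked where they are named. The value of 1 erythroid marker is not reported here on its own. Data other than the incisor RNA sequencing were not analysed here.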

Additional observations from a re-analysis of the deposited data

How the results depend on the processing

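The number of the 9 genes past the study's threshold was 1 with all samples in edgeR and 2 with TMM, total counts or DESeq2, the added gene being Ccnd3 at -0.66, -0.84 and -0.60. It was 1 in each fit that left a sample out. Cdkn1a passed in all 16 alternatives, with log2 fold changes from -1.46 to -0.99. Ccnd2, Ccnd3, Cdkn1b and Mdm2 kept their sign in all 16. Relative to the median of all genes in the same fit, Ccnd3, Cdkn1b and Mdm2 kept it too. On that scale Ccnd2 ran from -0.42 without mutant replicate 2 to 0.15 with the length and GC correction and replicate block. It was 0.044 with limma-voom. After the length and GC correction, Ccnd1 turned to 0.26 and Cdkn1c to 0.14, and with the replicate block as well they were 0.28 and 0.13. Leaving out 1 sample at a time, the log2 fold change ran from -0.30 to 0.061 for Ccnd1, from -0.29 to 0.032 for Cdkn1c, from -0.75 to 0.015 for Trp53 and from -0.35 to 0.073 for Rb1. The log2 ratio differences ran from -0.19 to 0.38 for Ccnd1 to Ccnd2, from -0.15 to 0.55 for Ccnd2 to Ccnd3 and from -0.019 to 0.45 for the D cyclins to the CIP/KIP inhibitors. Of the pathway genes, 15 passed with all samples, 8 with the length and GC correction and replicate block together, 22 with limma-voom, and 9 (without control replicate 3) to 24 (without mutant replicate 1) with a sample left out. Deviations from the group means correlated at 0.0472, 0.00937 and 0.0548 between same-numbered samples, and at -0.0593 to 0.00808 between the others. The paper's methods speak of 3 pairs of samples per group, without saying what was paired. Whether same-numbered samples share more than a number is not known. With the number as a replicate block alone, Cdkn1a was at -1.21 with an adjusted p of 0.0432 in edgeR, and 13 pathway genes passed. Over all genes, 1726 rose and 1411 fell with the upper quartile, 1518 and 1733 with TMM, and 1253 and 2335 with total counts. The median of all genes moved from -0.040 to -0.13 with TMM, -0.30 with total counts, -0.29 with limma-voom and -0.27 with the replicate block. The causes were not tested. Of all 19060 genes, 17.1 to 30.3% were at 0 in a mutant library and 3.83 to 3.96% in a control. Depth limits how low a level a count of 0 stands for. Trp53bp1, named after its values were seen, had 22.1 to 35.5 CPM in the controls. It had 25.1 and 21.1 CPM in mutants 2 and 3 and 0 in mutant 1, where 3 counts are 0.569 CPM by total count. The reason for this 0 was not tested.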
